A study of Mus musculus with 32 samples.

Results

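The genes described here are 9 of the 20234 in the count table, taken by their symbols: Yap1 and Wwtr1, which encode the transcriptional coactivators YAP and TAZ, Srf, which encodes serum response factor, the target genes Cyr61, Ctgf and Ankrd1, and the regulators Amotl1, Amotl2 and Lats2. Cyr61 and Ctgf are also named Ccn1 and Ccn2. The cells were mouse embryonic fibroblasts (MEFs) exposed to thapsigargin, a compound that stops calcium uptake into the endoplasmic reticulum and thereby disturbs protein folding in it. Each of 4 conditions had 4 replicates: untreated cells (0 h, the control), cells after 1 h of thapsigargin, cells after 16 h, and cells after 16 h that also had a PERK inhibitor during the last 4 h. PERK is the endoplasmic reticulum kinase that lowers translation initiation by phosphorylating eIF2α. The labels give neither strain nor genotype of the cells, and no doses, inhibitor name or vehicle. Every group with the inhibitor also had thapsigargin for the full 16 h. The labels name no untreated or vehicle group at 16 h and do not say when the controls were harvested. Thapsigargin and time in culture therefore cannot be told apart in the comparisons of 16 h with the control. The RNA of each of the 16 samples was divided into cytosolic RNA and polysome RNA, the gradient fractions with more than 4 ribosomes per RNA, which made 32 libraries.

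Gene counts summed to between 19317276 and 41776027 per library. Of 11 fibroblast markers, 9 were above 1 CPM (counts per 1000000 counts, scaled with TMM factors) in every condition, while Dcn and Lum were below it, and Lum was at 0 in the 16 h cytosolic libraries with and without the inhibitor. The summed level of these markers in cytosolic RNA was 7703 to 10512 CPM in controls, 17188 to 20710 CPM at 1 h and 4043 to 4701 CPM at 16 h. With the inhibitor it was 3867 to 4420 CPM. In polysome RNA the sum was 7969 to 10117 CPM in controls, 32141 to 40238 CPM at 1 h and 9477 to 11662 CPM at 16 h, where it overlapped the controls, and 3688 to 4143 CPM with the inhibitor. Summed markers of epithelial, endothelial, macrophage and striated muscle cells came to at most 8.27 CPM in every library. Whether these changes in fibroblast marker RNA have a part in the changes below was not tested. In bulk RNA, fewer cells expressing a gene and less of its RNA per cell cannot be told apart. The labels do not say whether the 4 replicates were separate cultures, so the spread behind every p-value is that among these samples and may be technical only.

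In the Hippo pathway a kinase cascade that ends in LATS1 and LATS2 phosphorylates YAP and TAZ and keeps them out of the nucleus, and angiomotin family proteins such as AMOTL1 and AMOTL2 bind them and hold them at cell junctions. Nuclear YAP and TAZ bind TEAD factors, which recognise the sequence GGAATG or its complement CATTCC, and switch on genes such as Cyr61, Ctgf, Ankrd1, Amotl2 and Lats2. The last of these feed back on the pathway. SRF binds the CArG box, and with its partners it drives the immediate early genes and the genes of the actin cytoskeleton. In fibroblasts both routes respond to cell tension and actin, and they share targets, Cyr61 and Ctgf among them.

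Promoter sequences were read for 8 of the 9 genes, all but Ctgf, credited to RefSeq on GRCm38.p6. The window ran from 250 bases before to 50 bases after the start site, and Lats2 and Wwtr1 had more than 1 start site. GGAATG on either strand was present in 14.7% of all 32851 such promoters, the CArG box, whose pattern is the same on both strands, in 1.63% and TATAAA along the gene's strand in 8.32%. GGAATG was found in Cyr61, Ankrd1, Amotl2, Yap1, Wwtr1 and Lats2, in Lats2 from 4 bases after 1 of its start sites. The Amotl1 window held none of the motifs. The windows of Amotl1, Amotl2, Lats2 and Ankrd1 lay wholly inside the gene spans given below, so any start site at the upstream end of those spans was not read. Among the 8 genes Srf held CArG boxes, at positions -82 and -62 from its start site. The 250 bases before the start site follow, read along the gene's strand, for 2 of the targets that fell at 16 h (Cyr61 and Ankrd1), for the feedback regulator whose polysome and cytosolic RNA moved apart (Amotl2) and for Srf. Capitals mark GGAATG or CATTCC in the first 3 and the CArG boxes in Srf, where the boxes do not overlap.
Cyr61 (Ccn1), minus strand, chr3:145649986-145650235: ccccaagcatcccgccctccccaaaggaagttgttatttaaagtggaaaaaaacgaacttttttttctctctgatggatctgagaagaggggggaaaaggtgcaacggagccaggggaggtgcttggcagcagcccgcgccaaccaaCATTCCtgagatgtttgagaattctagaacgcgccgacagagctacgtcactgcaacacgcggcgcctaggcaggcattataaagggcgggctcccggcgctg
Ankrd1, minus strand, chr19:36119845-36120094: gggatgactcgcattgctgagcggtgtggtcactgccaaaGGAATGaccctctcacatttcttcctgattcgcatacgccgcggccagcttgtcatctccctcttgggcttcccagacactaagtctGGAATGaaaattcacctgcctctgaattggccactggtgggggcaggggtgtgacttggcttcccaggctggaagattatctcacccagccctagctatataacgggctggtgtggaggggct
Amotl2, plus strand, chr9:102717554-102717803: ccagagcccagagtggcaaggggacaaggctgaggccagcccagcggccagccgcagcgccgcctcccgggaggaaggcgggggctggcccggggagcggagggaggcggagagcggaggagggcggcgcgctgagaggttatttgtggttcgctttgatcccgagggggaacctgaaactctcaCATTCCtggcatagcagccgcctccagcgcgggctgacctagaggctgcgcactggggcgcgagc
Srf, minus strand, chr17:46556163-46556412: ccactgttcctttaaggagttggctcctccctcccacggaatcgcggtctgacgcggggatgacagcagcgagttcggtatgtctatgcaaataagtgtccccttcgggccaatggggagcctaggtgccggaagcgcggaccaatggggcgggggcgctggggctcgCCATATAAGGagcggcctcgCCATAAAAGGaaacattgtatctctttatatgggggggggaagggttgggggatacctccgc
Counted from the start site, the motif begins at position -103 in Cyr61, where TATAAA begins at -25, at -210 and -123 in Ankrd1 and at -65 in Amotl2. A match is a description of these letters and not evidence of binding in these cells.

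Cyr61, Ctgf, Ankrd1 and Srf stood higher after 1 h of thapsigargin and far lower after 16 h, while Wwtr1, Yap1 and Amotl1 stood higher at 16 h in cytosolic RNA. Changes were tested with edgeR's quasi-likelihood test, and a gene was called at a Benjamini-Hochberg adjusted p under 0.05 over all genes tested. At 1 h, 7 of the 9 genes were called higher than the control in cytosolic RNA and 0 lower, where 56.2% of 12366 genes were called, 28.1% higher and 28.1% lower. In polysome RNA 7 were higher and 2 lower at 1 h, where 79.5% of 12065 genes were called, 41.1% higher and 38.5% lower. At 16 h against the control, 3 genes were higher and 6 lower in cytosolic RNA, where 77.3% of all genes were called, 37.9% higher and 39.4% lower. In polysome RNA 3 were higher and 5 lower at 16 h, where 85.1% were called, 42.3% higher and 42.9% lower. With this many genes called, being called sets none of the 9 apart, and the sizes carry the description. A fall of at least 2-fold in cytosolic RNA at 16 h was called in 17.6% of all genes and in 4 of the 9, Cyr61, Ctgf, Ankrd1 and Srf.

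With the PERK inhibitor against 16 h without it, 6 of the 9 were higher and 2 lower in cytosolic RNA, where 74.7% of all genes were called, 42.2% higher and 32.5% lower. In polysome RNA 3 were higher and 4 lower, where 82.8% were called, 42.1% higher and 40.7% lower. Against the control, the inhibitor samples had 2 genes higher and 5 lower in cytosolic RNA, beside 73.3% of all genes called, 38.1% higher and 35.2% lower. In polysome RNA 3 were higher and 6 lower, beside 77.1% called, 36.8% higher and 40.3% lower. Between 16 h and 1 h, 3 genes were higher and 6 lower in both RNA kinds. For this pair of times, cytosolic RNA had 75.3% of its genes called, 37.7% higher and 37.7% lower, and polysome RNA had 78.5%, 38.4% higher and 40% lower.

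Translational efficiency stands for polysome RNA relative to cytosolic RNA, and its change was tested as an interaction over all 32 libraries with the sample as a block. Every library was scaled with TMM factors, so levels and changes are relative to the other RNAs of that library. A change in the total amount of RNA on polysomes cannot be seen in them. At 1 h, Ctgf, Amotl2 and Lats2 were higher and Cyr61, Ankrd1, Yap1 and Wwtr1 lower, 3 and 4 of the 9, where 67.8% of 12561 genes were called, 33.4% higher and 34.4% lower. At 16 h the calls were of the same 3 and 4 genes, where 64.2% of all genes were called, 31.1% higher and 33% lower. With the inhibitor against 16 h, 3 were higher and 5 lower, where 60.1% were called, 26.4% higher and 33.7% lower. Between 16 h and 1 h, 1 gene, Cyr61, was called lower, where 28.1% of all genes were called, 14.5% higher and 13.6% lower. In the inhibitor samples against the control, 1 was higher and 4 were lower, where 43.4% were called, 16.3% higher and 27.1% lower. With DESeq2, its size factors, upper-quartile factors or coding length offsets, Yap1, Lats2 and Srf were called higher there as well. In that last comparison 37.6% of all calls were higher with TMM scaling, 50.2% with DESeq2 size factors and 57.4% with upper-quartile factors.

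**Figure D1:**
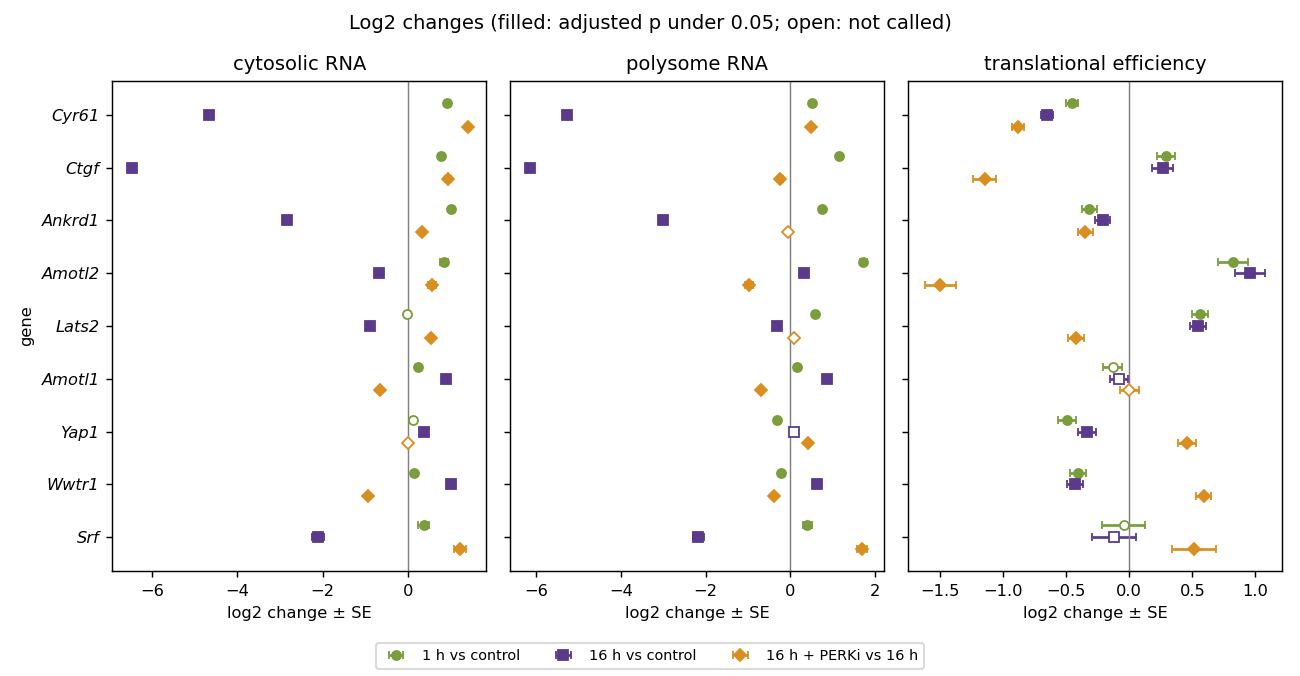
Log2 change with its standard error (x axis) for each of the 9 genes (y axis) in cytosolic RNA, polysome RNA and translational efficiency, for 1 h against control, 16 h against control, and 16 h with the PERK inhibitor against 16 h without it. Cyr61 and Ctgf lie between -4.68 and -6.46 in cytosolic RNA at 16 h, and in translational efficiency Ctgf and Amotl2 lie right of 0 at 1 h and 16 h and left of 0 with the inhibitor.

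Per kilobase of transcript, Cyr61 was the highest of the 9 genes in control cytosolic RNA, at 1475 CPM per kb. Yap1 followed at 249, Ctgf at 175, Ankrd1 at 146.3, Amotl2 at 78.8 and Srf at 55.8 CPM per kb. Wwtr1 and Lats2, at 25.8 and 25.4 CPM per kb, overlapped in their 4 libraries, and Amotl1 was the lowest at 20.6. After 16 h of thapsigargin Yap1 was the highest at 351 CPM per kb and Ctgf the lowest at 2.15. At that time Cyr61, Wwtr1 and Amotl2 lay together, at 62.7, 56.7 and 53.5 CPM per kb, with Wwtr1 overlapping both of the others. With the inhibitor the highest was again Yap1, at 335 CPM per kb, ahead of Cyr61 at 159.8. Levels here are scaled over all 32 libraries and the folds below come from fits over 16 or 32, so ratios of printed levels can differ from them. Lengths are those of 1 GENCODE transcript per gene, so this order depends on the transcript chosen.

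Cyr61 encodes a secreted protein of the extracellular matrix that binds integrins and is a standard readout of YAP and TAZ. It lies at chr3:145646976-145649981 on the minus strand (GRCm38). In cytosolic RNA its 4 libraries held 2973, 2925, 2988 and 3024 CPM in controls, 5428, 5646, 5781 and 5598 CPM at 1 h and 122.04, 128.3, 129.7 and 126.2 CPM at 16 h. With the inhibitor they held 327, 331, 319 and 314 CPM. The 4 groups did not overlap, with 1 h the highest, 16 h the lowest and the inhibitor samples between 16 h and the control. Cyr61 took on average 0.358% of all counts of a cytosolic library in controls, 0.656% at 1 h and 0.0138% at 16 h. The level at 1 h was 1.87-fold higher (log2 change 0.90 ± 0.035 SE, adjusted p = 3.6e-12) than in controls, and the level at 16 h was 47.8-fold lower (log2 change -5.58 ± 0.043 SE, adjusted p = 1.9e-22) than at 1 h. Against 16 h alone, the inhibitor samples were 2.64-fold higher (log2 change 1.40 ± 0.036 SE, adjusted p = 3.4e-15). They remained 9.68-fold lower than the control.

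In polysome RNA the Cyr61 libraries held 7355, 7432, 7686 and 7758 CPM in controls, 10069.7, 10383, 10391 and 10779 CPM at 1 h and 206, 202, 203 and 206 CPM at 16 h. With the inhibitor the values were 283, 285, 283 and 279 CPM. The groups again stood in the same order without overlap, and the inhibitor samples were 1.41-fold higher (log2 change 0.49 ± 0.035 SE, adjusted p = 4.8e-11) than 16 h, a smaller rise than in cytosolic RNA. The log2 ratio of polysome to cytosolic RNA was 1.34 ± 0.026 in controls, 0.89 ± 0.041 at 1 h and 0.69 ± 0.049 at 16 h (SD, n = 4 each). With the inhibitor it was -0.19 ± 0.023, below 0 in 4 of 4 samples. Translational efficiency fell at 1 h, with a log2 change of -0.45 ± 0.048 (adjusted p = 1e-07), and at 16 h, with -0.65 ± 0.048 (adjusted p = 9e-10), which was -0.28 with offsets for coding length. It was lower again with the inhibitor than at 16 h, with -0.88 ± 0.048 (adjusted p = 3.2e-11). Over all 12561 genes the median log2 ratio lay between -0.046 and 0.033 in each condition. The scaling holds this median near 0, so it does not show whether the total RNA on polysomes changed.

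Ctgf encodes connective tissue growth factor, a secreted matrix protein of the same family. It lies at chr10:24595442-24598683 on the plus strand, where exons of Gm15270 overlap it on the other strand, and without a stated strand setting reads of the pair cannot be told apart. Its cytosolic libraries held 452, 398, 406 and 419 CPM in controls, 740.2, 726, 707 and 733 CPM at 1 h and 5.34, 4.58, 5.81 and 4.91 CPM at 16 h, the last from 161 to 189 counts per library. The inhibitor samples held 9.32, 10.1, 9.60 and 8.93 CPM. No pair of groups overlapped, and all 16 h and inhibitor libraries held at most 10.1 CPM, against at least 398 CPM in controls. Ctgf was 1.72-fold higher (log2 change 0.78 ± 0.053 SE, adjusted p = 1.9e-09) at 1 h than in controls, and 152-fold lower (log2 change -7.25 ± 0.072 SE, adjusted p = 8.7e-21) at 16 h than at 1 h. With the inhibitor it was 1.91-fold higher (log2 change 0.93 ± 0.067 SE, adjusted p = 1.2e-09) than at 16 h alone, and still 46.2-fold lower than the control.

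Polysome RNA of Ctgf was 873, 894, 959 and 916 CPM in controls, 1952, 2011, 1901 and 1877 CPM at 1 h and 13.0, 13.5, 13.5 and 13.9 CPM at 16 h. The inhibitor samples had 11.7, 11.1, 11.6 and 10.4 CPM, all 4 below the 4 libraries at 16 h without it. So the direction with the inhibitor was opposite in the 2 RNA kinds: cytosolic RNA was higher, and polysome RNA was 1.18-fold lower (log2 change -0.23 ± 0.051 SE, adjusted p = 0.0003). The log2 ratio was 0.33, 0.14, 0.27 and 0.23 with the inhibitor, against 1.28, 1.56, 1.21 and 1.499 at 16 h alone. Translational efficiency was 2.21-fold lower (log2 change -1.15 ± 0.091 SE, adjusted p = 3.6e-09). At 1 h it was 1.22-fold higher (log2 change 0.29 ± 0.073 SE, adjusted p = 0.0017) than in controls, and at 16 h 1.20-fold higher (log2 change 0.26 ± 0.084 SE, adjusted p = 0.01). The ratios at 16 h and in controls overlapped, and the 16 h call was lost without 16 h replicate 2 (log2 change 0.20).

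Ankrd1 encodes an ankyrin repeat protein of the nucleus and, in heart and skeletal muscle, of the sarcomere, and is a target of YAP and TAZ. It lies at chr19:36111961-36120099 on the minus strand. Its cytosolic level was 278 to 311 CPM in controls, 576 to 607 CPM at 1 h and 43.9 to 45.4 CPM at 16 h, with 51.8 to 54.9 CPM in the inhibitor samples. Polysome RNA was 439 to 470.0 CPM in controls, 724 to 739 CPM at 1 h and 58.1 to 59.7 CPM at 16 h, with 53.5 to 58.5 CPM in the inhibitor samples. In cytosolic RNA the 4 groups were apart, while in polysome RNA the inhibitor samples overlapped those at 16 h alone. The cytosolic level was 2.01-fold higher (log2 change 1.00 ± 0.037 SE, adjusted p = 2.9e-12) at 1 h and 7.19-fold lower (log2 change -2.85 ± 0.04 SE, adjusted p = 6.4e-19) at 16 h than in controls. The inhibitor samples were 1.25-fold higher (log2 change 0.32 ± 0.038 SE, adjusted p = 7.8e-07) than 16 h in cytosolic RNA, the smallest rise with the inhibitor among the 6 genes that rose. The polysome difference was a log2 change of -0.051 ± 0.042 (adjusted p = 0.265), which was not called. Its translational efficiency was called lower at 1 h (-0.32 ± 0.059), at 16 h (-0.21 ± 0.061) and with the inhibitor (-0.35 ± 0.062 against 16 h). The 16 h call was lost with upper-quartile factors (-0.12, adjusted p = 0.055), and with coding length offsets the sign turned at 1 h (0.13) and 16 h (0.26).

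**Figure D2:**
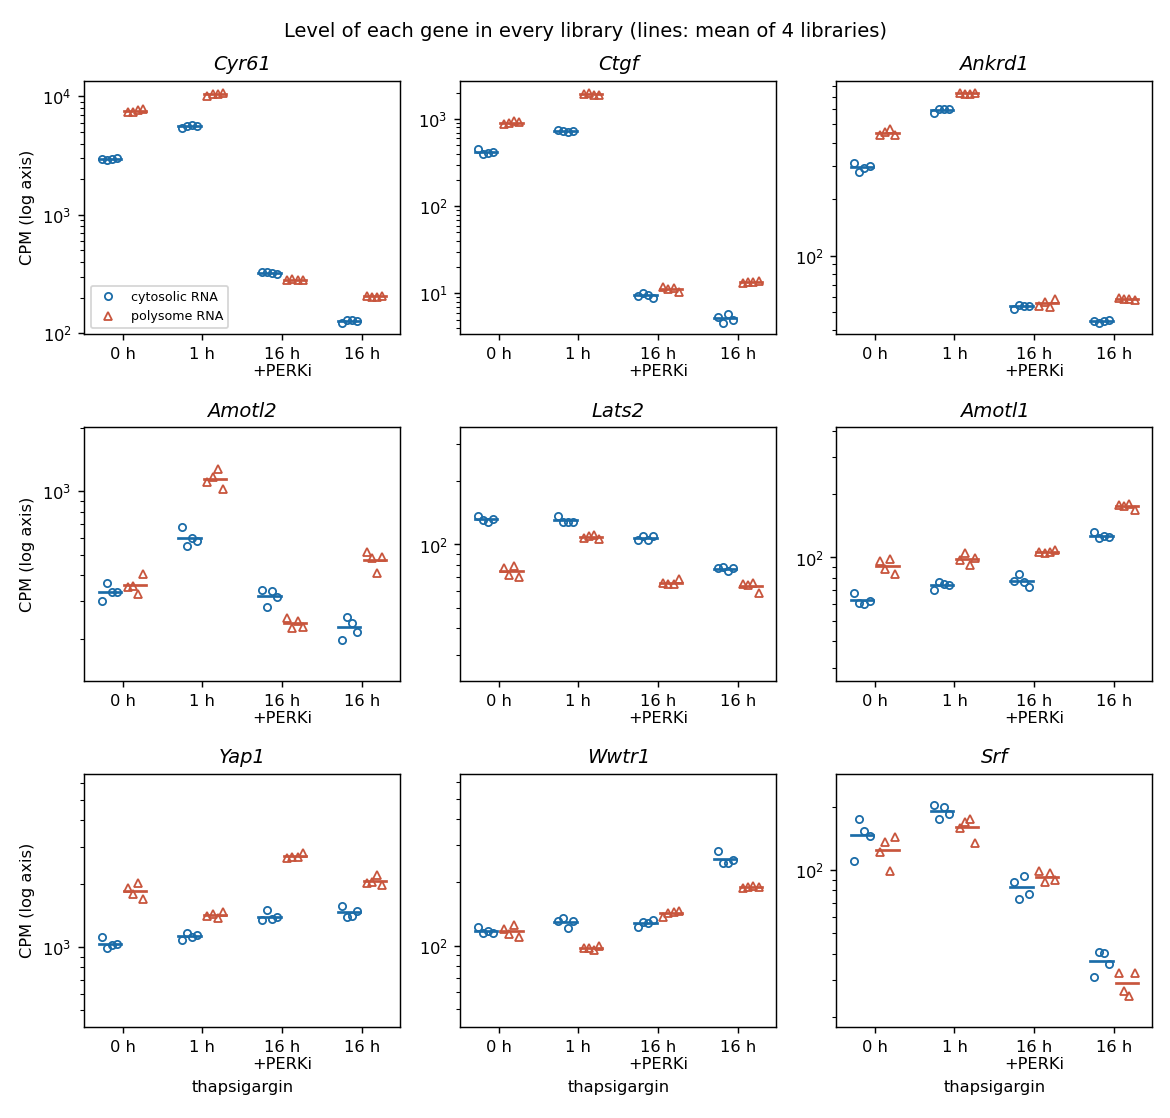
CPM on a log axis in each of the 32 libraries for the 9 genes, by condition (x axis), with circles for cytosolic and triangles for polysome RNA and a line at the mean of 4 libraries. In cytosolic RNA, Cyr61, Ctgf and Ankrd1 have their highest libraries at 1 h and their lowest at 16 h. In polysome RNA the lowest libraries of Ctgf (10.4 CPM) and Ankrd1 (53.5 CPM) are with the inhibitor. Wwtr1 has its highest cytosolic libraries at 16 h (246 to 280.1 CPM).

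Amotl2 encodes an angiomotin family protein that binds YAP and TAZ and is itself one of their targets. It lies at chr9:102716672-102733418 on the plus strand. The cytosolic libraries held 302, 365, 331 and 332 CPM in controls, 676, 549.9, 601 and 582 CPM at 1 h and 197, 254, 237 and 215 CPM at 16 h. The inhibitor samples held 340.3, 283, 338 and 315 CPM, above every 16 h library and overlapping the controls. The level was 1.80-fold higher (log2 change 0.84 ± 0.092 SE, adjusted p = 6.7e-07) at 1 h and 1.60-fold lower (log2 change -0.68 ± 0.092 SE, adjusted p = 3.5e-06) at 16 h relative to controls, and 1.46-fold higher (log2 change 0.55 ± 0.092 SE, adjusted p = 4.1e-05) with the inhibitor relative to 16 h. The inhibitor samples did not pass the test against controls, with a log2 change of -0.13 ± 0.092 (adjusted p = 0.211).

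Polysome RNA of Amotl2 took another course. It was 350.0, 354, 327 and 405 CPM in controls, 1112, 1168, 1284 and 1021 CPM at 1 h and 518, 480.2, 408 and 486 CPM at 16 h. The inhibitor samples held 249.8, 225, 243 and 228 CPM, lower than every library of the other 3 conditions. At 16 h, polysome RNA was thus 1.26-fold higher (log2 change 0.33 ± 0.086 SE, adjusted p = 0.002) than in controls where cytosolic RNA was lower, and with the inhibitor it was 1.96-fold lower (log2 change -0.97 ± 0.087 SE, adjusted p = 1.4e-08) than at 16 h where cytosolic RNA was higher. The log2 ratio was -0.45, -0.33, -0.47 and -0.47 with the inhibitor, against 1.39, 0.92, 0.78 and 1.18 at 16 h alone. It was 0.72, 1.09, 1.10 and 0.81 at 1 h, against 0.21, -0.045, -0.02 and 0.29 in controls. Translational efficiency was 1.76-fold higher (log2 change 0.82 ± 0.12 SE, adjusted p = 6.4e-06) at 1 h and 1.95-fold higher (log2 change 0.96 ± 0.12 SE, adjusted p = 1e-06) at 16 h than in controls. With the inhibitor it was 2.82-fold lower (log2 change -1.496 ± 0.12 SE, adjusted p = 4.3e-09) than at 16 h, and -1.06 with coding length offsets.

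Lats2 encodes the kinase that phosphorylates YAP and TAZ, and is a target of theirs as well. It lies at chr14:57689662-57758388 on the minus strand, and exons of Gm49361 overlap it on the same strand. In cytosolic RNA it was 128.6 to 136.6 CPM in controls, 127.9 to 136.95 CPM at 1 h, 75.0 to 78.4 CPM at 16 h and 104.6 to 109.9 CPM with the inhibitor. In polysome RNA it was 70.1 to 79.3 CPM in controls, 106.4 to 111.2 CPM at 1 h, 59.1 to 65.7 CPM at 16 h and 64.9 to 68.4 CPM with the inhibitor. At 1 h the cytosolic groups overlapped and the log2 change was -0.031 ± 0.039 (adjusted p = 0.514), which was not called, while polysome RNA was 1.51-fold higher (log2 change 0.59 ± 0.048 SE, adjusted p = 4.4e-10). At 16 h cytosolic RNA was 1.87-fold lower (log2 change -0.90 ± 0.039 SE, adjusted p = 1.2e-12) and polysome RNA 1.24-fold lower (log2 change -0.31 ± 0.048 SE, adjusted p = 6.4e-06) than in controls. With the inhibitor the cytosolic level was 1.45-fold higher (log2 change 0.53 ± 0.039 SE, adjusted p = 1.8e-09) than at 16 h, and the polysome change of 0.084 ± 0.048 (adjusted p = 0.112) was not called. With upper-quartile factors that polysome change was 0.16 and called (adjusted p = 0.0031).

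Amotl1 encodes another angiomotin family protein, and of the 3 regulators it was the one with more cytosolic RNA at 16 h. It lies at chr9:14541966-14645056 on the minus strand. Cytosolic RNA was 59.9 to 67.8 CPM in controls, 69.9 to 76.6 CPM at 1 h, 123.7 to 131.6 CPM at 16 h and 72.1 to 83.4 CPM with the inhibitor. Polysome RNA was 83.5 to 97.99 CPM in controls, 92.0 to 105.1 CPM at 1 h, 168 to 179.5 CPM at 16 h and 105.4 to 108.5 CPM with the inhibitor. The 16 h libraries stood above all others in both RNA kinds, and the polysome values at 1 h overlapped the controls. Amotl1 was 1.86-fold higher (log2 change 0.90 ± 0.047 SE, adjusted p = 1.6e-11) in cytosolic RNA at 16 h than in controls and 1.82-fold higher (log2 change 0.86 ± 0.051 SE, adjusted p = 1.6e-12) in polysome RNA. With the inhibitor it was 1.58-fold lower (log2 change -0.66 ± 0.047 SE, adjusted p = 1.1e-09) in cytosolic RNA than at 16 h and 1.61-fold lower (log2 change -0.69 ± 0.05 SE, adjusted p = 7.3e-11) in polysome RNA. The polysome change at 1 h (log2 change 0.16 ± 0.051 SE, adjusted p = 0.0078) was lost with DESeq2 and with its size factors. Translational efficiency was not called in any of the 5 comparisons, with log2 changes from -0.13 to 0.053.

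Wwtr1 encodes TAZ. It lies at chr3:57455649-57575910 on the minus strand. The cytosolic libraries held 122.4, 114.2, 117.4 and 114.3 CPM in controls, 130.4, 135.1, 121.2 and 131.6 CPM at 1 h and 280.1, 247, 246 and 254 CPM at 16 h. With the inhibitor they held 122.2, 129.1, 128.2 and 133.01 CPM, far under the 16 h libraries and within the range of the 1 h and control libraries together. The 16 h level was 2.02-fold higher (log2 change 1.01 ± 0.046 SE, adjusted p = 2.6e-12) than in controls, and the inhibitor samples were 1.93-fold lower (log2 change -0.95 ± 0.046 SE, adjusted p = 8.3e-12) than 16 h. Against controls the inhibitor samples differed by a log2 change of 0.061 ± 0.046 (adjusted p = 0.242), which was not called. The smaller rise at 1 h (log2 change 0.13 ± 0.046 SE, adjusted p = 0.021) overlapped the controls and was lost without control replicate 4, 1 h replicate 1 or 1 h replicate 2 (log2 changes of 0.12 each).

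TAZ RNA on polysomes was 120.1, 113.7, 124.7 and 109.5 CPM in controls, 97.7, 97.8, 95.6 and 99.5 CPM at 1 h and 187, 190.4, 193 and 189.6 CPM at 16 h. The inhibitor samples held 137.1, 143.2, 144.6 and 145.4 CPM, between the controls and 16 h. Polysome RNA was 1.15-fold lower (log2 change -0.21 ± 0.044 SE, adjusted p = 0.00022) at 1 h and 1.54-fold higher (log2 change 0.63 ± 0.043 SE, adjusted p = 2.5e-11) at 16 h than in controls, and with the inhibitor 1.30-fold lower (log2 change -0.38 ± 0.043 SE, adjusted p = 5.8e-08) than at 16 h. The log2 ratio of polysome to cytosolic RNA was -0.0024 ± 0.064 in controls, -0.41 ± 0.051 at 1 h and -0.43 ± 0.10 at 16 h, and 0.15 ± 0.02 with the inhibitor (SD, n = 4 each). Translational efficiency was 1.32-fold lower (log2 change -0.41 ± 0.062 SE, adjusted p = 1.2e-05) at 1 h and 1.35-fold lower (log2 change -0.43 ± 0.061 SE, adjusted p = 5.5e-06) at 16 h, and with the inhibitor 1.504-fold higher (log2 change 0.59 ± 0.061 SE, adjusted p = 1.3e-07) than at 16 h. Its difference between the inhibitor samples and the controls (log2 change 0.16 ± 0.062 SE, adjusted p = 0.047) was lost with no filter on low counts and in 7 of 8 fits that left out 1 sample.

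Yap1 encodes YAP. It lies at chr9:7931999-8004596 on the minus strand, with exons of Gm20416 on the other strand. Cytosolic RNA was 1117, 992, 1019 and 1032 CPM in controls, 1081, 1161, 1123 and 1145 CPM at 1 h and 1572, 1383, 1409 and 1484 CPM at 16 h, with 1346, 1495, 1356 and 1390.4 CPM in the inhibitor samples. The 1 h libraries overlapped the controls, and the inhibitor libraries overlapped those at 16 h. At 1 h the difference from controls was not called (log2 change 0.10 ± 0.045), but it was with upper-quartile factors (0.11) and without control replicate 1 (0.13). Yap1 was 1.29-fold higher (log2 change 0.37 ± 0.045 SE, adjusted p = 1.1e-06) at 16 h than in controls. The inhibitor samples differed from 16 h by a log2 change of -0.013 ± 0.045 (adjusted p = 0.807), which was not called.

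Polysome RNA of Yap1 was 1907, 1782, 2008 and 1695 CPM in controls, 1412, 1441, 1376 and 1464 CPM at 1 h and 2010.2, 2049.7, 2208 and 1970.4 CPM at 16 h. The inhibitor samples held 2642, 2688, 2669.5 and 2789.5 CPM, above every library of the other 3 conditions. At 1 h polysome RNA was 1.25-fold lower (log2 change -0.32 ± 0.046 SE, adjusted p = 2e-06) than in controls, and with the inhibitor 1.34-fold higher (log2 change 0.42 ± 0.046 SE, adjusted p = 4.3e-08) than at 16 h. At 16 h it did not pass the test against controls (log2 change 0.083 ± 0.046 SE, adjusted p = 0.1). It was called with upper-quartile factors (0.11, adjusted p = 0.025) and without control replicate 3 (0.13, adjusted p = 0.0056). The log2 ratio was 0.83 ± 0.11 in controls, 0.34 ± 0.041 at 1 h and 0.49 ± 0.14 at 16 h, and 0.95 ± 0.071 with the inhibitor (SD, n = 4 each). Translational efficiency was 1.41-fold lower (log2 change -0.49 ± 0.072 SE, adjusted p = 6.7e-06) at 1 h and 1.26-fold lower (log2 change -0.33 ± 0.072 SE, adjusted p = 0.00048) at 16 h, and with the inhibitor 1.37-fold higher (log2 change 0.46 ± 0.072 SE, adjusted p = 2.1e-05) than at 16 h.

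**Figure D3:**
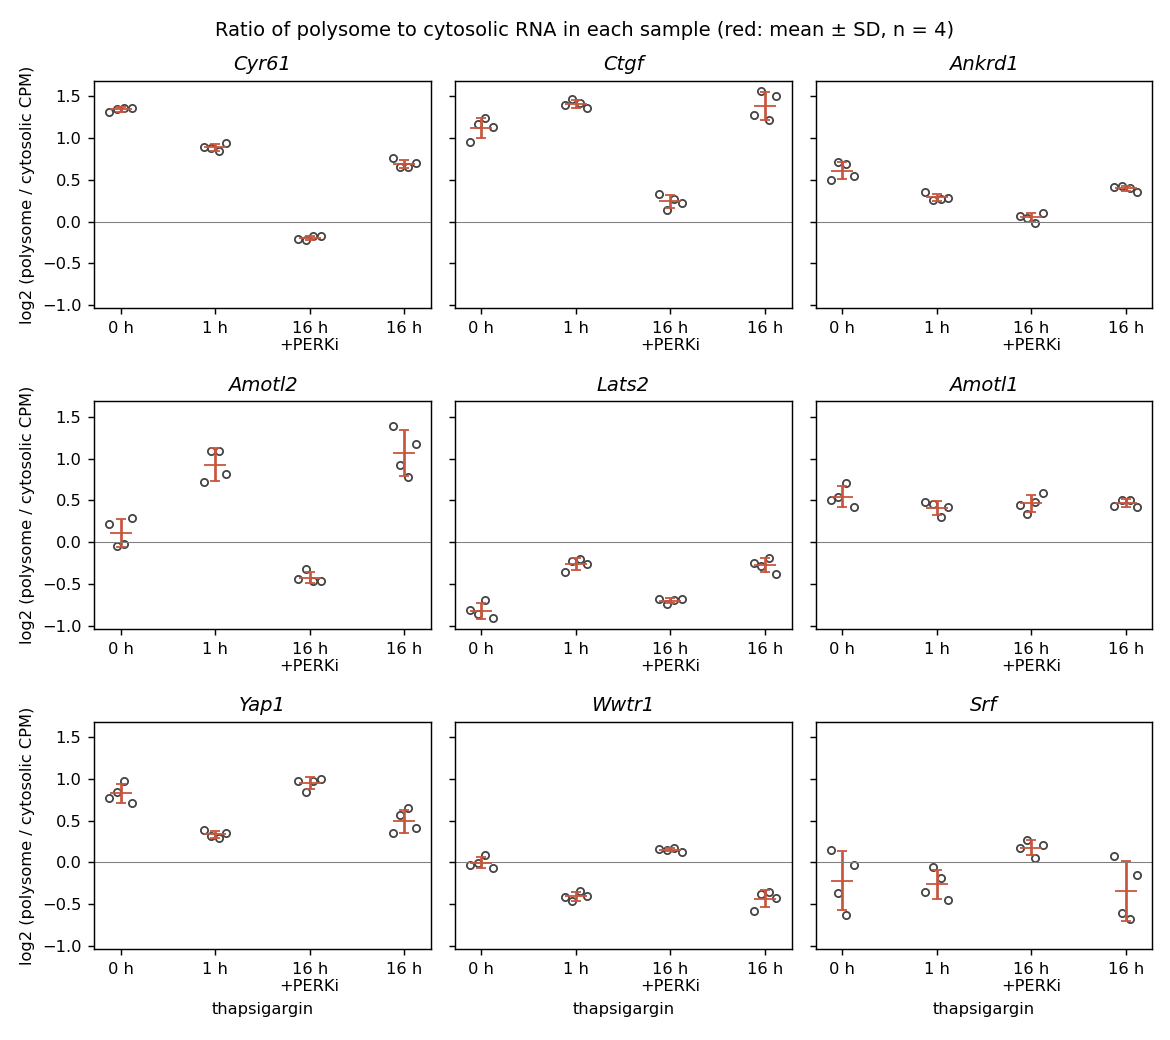
Log2 ratio of polysome to cytosolic CPM in each of the 16 samples (open circles) for the 9 genes by condition, with the mean and SD of 4 samples in red. With the inhibitor the ratios of Ctgf and Amotl2 lie below those at 16 h, and the ratios of Yap1 and Wwtr1 lie above them, without overlap.

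Srf encodes a transcription factor that regulates its own gene as well as actin genes. It lies at chr17:46548329-46556175 on the minus strand. Its cytosolic libraries held 109.7, 175, 153 and 145.6 CPM in controls, 203, 175, 198 and 184 CPM at 1 h and 30.8, 40.6, 40.4 and 35.6 CPM at 16 h, and with the inhibitor 87.6, 72.6, 93.1 and 77.2 CPM. Controls and 1 h overlapped at 175 CPM, while the 16 h libraries lay under all others and the inhibitor libraries lay between them and the controls. The spread of Srf between replicates was wide, with a control SD of 27.2 CPM on a mean of 145.9 CPM. The level was 4.31-fold lower (log2 change -2.11 ± 0.14 SE, adjusted p = 8.4e-10) at 16 h relative to controls and 2.32-fold higher (log2 change 1.22 ± 0.14 SE, adjusted p = 6.3e-07) with the inhibitor relative to 16 h. The rise at 1 h (log2 change 0.37 ± 0.13 SE, adjusted p = 0.025) was lost without control replicate 1, 1 h replicate 1 or 1 h replicate 3 (log2 changes of 0.25, 0.33 and 0.35).

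Polysome RNA of Srf was 122.2, 135.5, 98.7 and 142.7 CPM in controls, 158, 168, 175 and 134.9 CPM at 1 h and 32.5, 26.7, 25.2 and 32.2 CPM at 16 h, and with the inhibitor 98.5, 87.4, 96.9 and 89.4 CPM. The 16 h libraries were again the lowest, and the highest inhibitor library (98.5 CPM) lay just under the lowest control library (98.7 CPM). Srf was 4.49-fold lower (log2 change -2.17 ± 0.12 SE, adjusted p = 1e-10) on polysomes at 16 h than in controls and 3.25-fold higher (log2 change 1.70 ± 0.12 SE, adjusted p = 2.3e-09) with the inhibitor than at 16 h, the largest rise with the inhibitor among the 9 genes in polysome RNA. Its translational efficiency was 1.43-fold higher (log2 change 0.51 ± 0.18 SE, adjusted p = 0.018) with the inhibitor than at 16 h, with overlapping ratios, and this call was lost without 16 h replicate 2 or 16 h replicate 3 (log2 changes of 0.43 and 0.41).

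Translational efficiency depended on the correction for coding length in several of the 9 genes. Coding lengths run from 957 nt in Ankrd1 to 3126 nt in Lats2, and the polysome fraction was defined by a number of ribosomes per RNA. With offsets that remove the trend on coding length from each library, the fall of Cyr61 at 1 h was no longer called (-0.075 ± 0.047), and neither were the rises of Lats2 at 1 h (0.053 ± 0.062) and 16 h (0.016 ± 0.063). Ankrd1 changed sign, to 0.13 ± 0.060 at 1 h and 0.26 ± 0.061 at 16 h. Amotl1 was called lower at 1 h (-0.61 ± 0.072) and 16 h (-0.58 ± 0.071) and higher with the inhibitor against 16 h (0.56 ± 0.071), where without offsets it was not called. Lats2 changed sign with the inhibitor (0.15 ± 0.063). The rises of Ctgf and Amotl2 and the falls of Yap1 and Wwtr1 at 1 h and 16 h were called with and without the offsets, but their sizes moved. With the offsets Ctgf stood at 0.72 at 1 h and 0.70 at 16 h, against 0.29 and 0.26 without them, and Amotl2 at 0.54 and 0.63, against 0.82 and 0.96. Wwtr1 stood at -0.17 and -0.22, against -0.41 and -0.43, and Yap1 at -0.32 and -0.20, against -0.49 and -0.33. The fall of Cyr61 at 16 h was -0.28 with the offsets, against -0.65. In the inhibitor samples against 16 h, Ankrd1 had -0.70 with the offsets, against -0.35, Ctgf -1.44, against -1.15, Amotl2 -1.06, against -1.496, and Cyr61 -1.11, against -0.88. Called in that comparison with and without the offsets were the falls of Cyr61, Ctgf, Ankrd1 and Amotl2 and the rises of Yap1, Wwtr1 and Srf with the inhibitor. Changes in translational efficiency of genes outside the 9 are given without the offsets. Changes in polysome RNA, of the 9 genes and of all others, are also given without them. Whether the polysome changes depend on coding length was not tested.

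**Figure D4:**
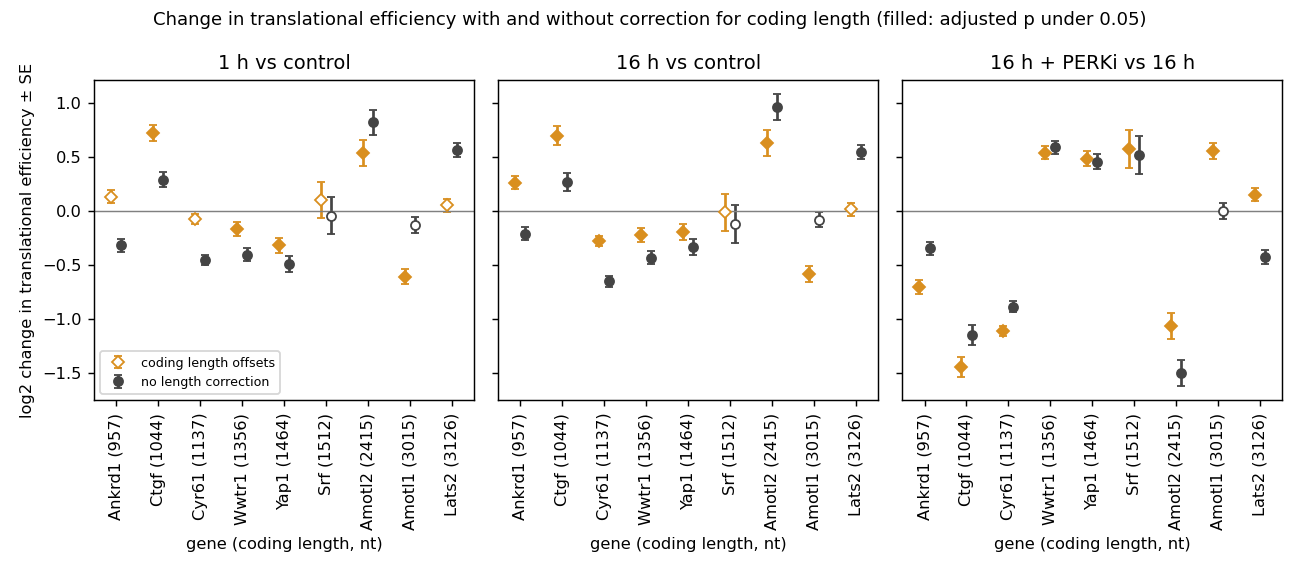
Log2 change in translational efficiency with its standard error for the 9 genes in order of coding length (x axis, in nucleotides), with coding length offsets (diamonds) and without (circles), filled where called. With the offsets Ankrd1 crosses 0 at 1 h and 16 h and lies farther below it with the inhibitor, Lats2 lies near 0 at 1 h and 16 h and crosses it with the inhibitor, and Amotl2 and Ctgf stay above 0 at 1 h and 16 h and below it with the inhibitor.

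The genes through which SRF is known to act moved widely in the same libraries. Of 17 cytoskeletal targets, 14 were higher and 1 lower at 1 h in cytosolic RNA, with a median log2 change of 0.37, beside 0.0031 over all genes. In polysome RNA at 1 h, 4 were higher and 12 lower (median -0.81, beside 0.032 over all genes). At 16 h, 1 was higher and 16 were lower in cytosolic RNA (median -2.04, beside -0.012). Polysome RNA had 0 higher and 16 lower at 16 h (median -3.06, beside -0.014). With the inhibitor against 16 h, 14 were higher and 1 lower in cytosolic RNA (median 1.02, beside 0.10), and 13 were higher and 3 lower in polysome RNA (median 1.82, beside 0.043). Of all genes, 28.1% were called higher and 28.1% lower in cytosolic RNA at 1 h, and 41.1% and 38.5% in polysome RNA. At 16 h these shares were 37.9% and 39.4% in cytosolic RNA, and 42.3% and 42.9% in polysome RNA. With the inhibitor against 16 h they were 42.2% and 32.5% in cytosolic RNA, and 42.1% and 40.7% in polysome RNA.

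Among them, Actg1, cytoplasmic gamma-actin, was 7.18-fold lower (log2 change -2.84 ± 0.039 SE, adjusted p = 6.1e-19) in cytosolic RNA at 16 h than in controls and 3.46-fold higher (log2 change 1.79 ± 0.038 SE, adjusted p = 2.8e-16) with the inhibitor than at 16 h. Vcl, the adhesion protein vinculin, was 8.94-fold lower at 16 h and 2.70-fold higher with the inhibitor in the same comparisons. Tagln, the actin-binding protein transgelin, was 11.8-fold lower on polysomes at 16 h than in controls and 6.36-fold higher with the inhibitor than at 16 h. Acta2, smooth muscle actin, averaged 750.9 ± 56.0 CPM at 1 h, against 635 ± 14.02 CPM in controls, in cytosolic RNA. In polysome RNA it averaged 859 ± 63.4 CPM at 1 h, against 2485 ± 70.1 CPM in controls (SD, n = 4 each).

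The 9 immediate early targets of SRF gave 8 higher and 0 lower at 1 h in cytosolic RNA (median log2 change 1.63, beside 0.0031 over all genes), where 28.1% of all genes were higher. At 16 h 0 were higher and 8 lower (median -4.83, beside -0.012), where 39.4% of all genes were lower. With the inhibitor against 16 h, 2 were higher and 2 lower in cytosolic RNA (median -0.026, beside 0.10), and 2 were higher and 3 lower in polysome RNA (median -0.61, beside 0.043). The shares of all genes there were 42.2% higher and 32.5% lower in cytosolic RNA, and 42.1% and 40.7% in polysome RNA. Egr1, a zinc finger transcription factor, averaged 603 ± 27.6 CPM in controls, 2975 ± 133.3 CPM at 1 h and 40.3 ± 3.31 CPM at 16 h, and 11.1 ± 1.30 CPM with the inhibitor (SD, n = 4 each). With the inhibitor against 16 h it was 3.48-fold lower (log2 change -1.80 ± 0.082 SE, adjusted p = 3.5e-12). Fosb, a component of AP-1, was 2.81-fold higher (log2 change 1.49 ± 0.13 SE, adjusted p = 1.7e-08) with the inhibitor than at 16 h in cytosolic RNA. Both levels were low, at 0.78 ± 0.16 CPM at 16 h and 2.15 ± 0.079 CPM with the inhibitor, against 20.8 ± 1.32 CPM in controls (SD, n = 4 each).

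Of the 7 SRF cofactors 6 were tested. In cytosolic RNA at 16 h, 1 was higher and 4 lower, where 77.3% of all genes were called, and in polysome RNA 4 were higher and 1 lower, where 85.1% were. Mkl2, an actin-regulated partner of SRF, averaged 61.1 ± 4.18 CPM on polysomes at 16 h, against 25.4 ± 1.52 CPM in controls, and was 2.32-fold higher (log2 change 1.22 ± 0.083 SE, adjusted p = 3.1e-10) in translational efficiency. Elk3, a ternary complex factor, was 3.33-fold lower (log2 change -1.73 ± 0.046 SE, adjusted p = 1.6e-15) in cytosolic RNA at 16 h and 2.71-fold higher (log2 change 1.44 ± 0.046 SE, adjusted p = 3.8e-14) with the inhibitor than at 16 h. Translational efficiency of all 6 tested cofactors was called lower with the inhibitor against 16 h (median log2 change -0.49, beside -0.092 over all genes). In that comparison 33.7% of all genes were called lower. These values, and the translational efficiency of Mkl2, are without coding length offsets.

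Of 17 other YAP/TAZ target genes, 16 passed the filter in cytosolic RNA. At 1 h, 7 of the 16 were higher and 6 lower than in controls (median log2 change 0.016, beside 0.0031 over all genes). The shares of all genes at 1 h were 28.1% higher and 28.1% lower. At 16 h, 2 of the 16 were higher and 12 lower (median log2 change -0.77, beside -0.012 over all genes), where 37.9% of all genes were higher and 39.4% lower. With the inhibitor against 16 h, 7 were higher and 8 lower (median -0.023, beside 0.10), where the shares of all genes were 42.2% and 32.5%. Axl, a receptor tyrosine kinase, was 7.08-fold lower (log2 change -2.82 ± 0.043 SE, adjusted p = 1.7e-18) at 16 h than in controls and 2.37-fold higher (log2 change 1.24 ± 0.041 SE, adjusted p = 5.9e-14) with the inhibitor than at 16 h. Gadd45a, a stress-induced growth arrest gene, went the other way, 11.7-fold higher (log2 change 3.55 ± 0.068 SE, adjusted p = 2.5e-17) at 16 h and 9.36-fold lower (log2 change -3.23 ± 0.067 SE, adjusted p = 2.4e-16) with the inhibitor. Myof, the membrane repair protein myoferlin, was 4.27-fold higher (log2 change 2.09 ± 0.074 SE, adjusted p = 1e-13) in translational efficiency at 16 h than in controls and 3.82-fold lower (log2 change -1.94 ± 0.074 SE, adjusted p = 8.7e-13) with the inhibitor than at 16 h. Coding length offsets were not applied to these values of Myof. On polysomes 5 of 17 were higher and 10 lower at 16 h (median -0.39, beside -0.014), where 42.3% and 42.9% of all genes were.

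Among the 6 genes for the DNA-binding TEAD factors and Vgll cofactors, calls depended on the time and the RNA kind. In polysome RNA at 1 h, 4 were higher and 0 lower than in controls (median log2 change 0.43, beside 0.032 over all genes), where 41.1% of all genes were higher. At 16 h against 1 h, 0 were higher and 4 lower in cytosolic RNA (37.7% of all genes lower), and 0 higher and 5 lower in polysome RNA (40% of all genes lower). Against controls, 1 was higher and 3 lower at 16 h in cytosolic RNA, where 77.3% of all genes were called, and with the inhibitor against 16 h 3 were higher and 1 lower, where 74.7% were. Tead1 was 1.47-fold lower (log2 change -0.55 ± 0.054 SE, adjusted p = 5.9e-08) at 16 h, and Tead2 was 2.07-fold higher (log2 change 1.05 ± 0.083 SE, adjusted p = 4.6e-09) with the inhibitor. Of 21 Hippo kinases and upstream regulators, 15 were higher and 3 lower in polysome RNA at 1 h than in controls (median 0.47, beside 0.032), and 12 were higher and 5 lower at 16 h (median 0.25, beside -0.014), where 41.1% and 42.3% of all genes were higher. In cytosolic RNA 7 were higher and 4 lower at 1 h, beside 28.1% of all genes higher and 28.1% lower. At 16 h 7 were higher and 10 lower, beside 37.9% and 39.4% of all genes, and with the inhibitor against 16 h 9 were higher and 8 lower, beside 42.2% and 32.5%. Fat4, an atypical cadherin upstream of the pathway in mammals, was 12.3-fold lower (log2 change -3.62 ± 0.072 SE, adjusted p = 3.5e-17) in cytosolic RNA at 16 h and 4.28-fold higher (log2 change 2.10 ± 0.07 SE, adjusted p = 6.1e-14) with the inhibitor than at 16 h. Amot, the founding angiomotin, moved in the same directions as Amotl2 in translational efficiency, 3.75-fold higher (log2 change 1.91 ± 0.091 SE, adjusted p = 2.8e-12) at 16 h than in controls and 2.64-fold lower (log2 change -1.40 ± 0.089 SE, adjusted p = 2.3e-10) with the inhibitor than at 16 h. The values of Amot are also without coding length offsets. Ptpn14, a phosphatase that binds YAP, is in both the upstream and the target list, and was 2.08-fold lower (log2 change -1.05 ± 0.04 SE, adjusted p = 1.5e-15) on polysomes with the inhibitor.

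**Figure D5:**
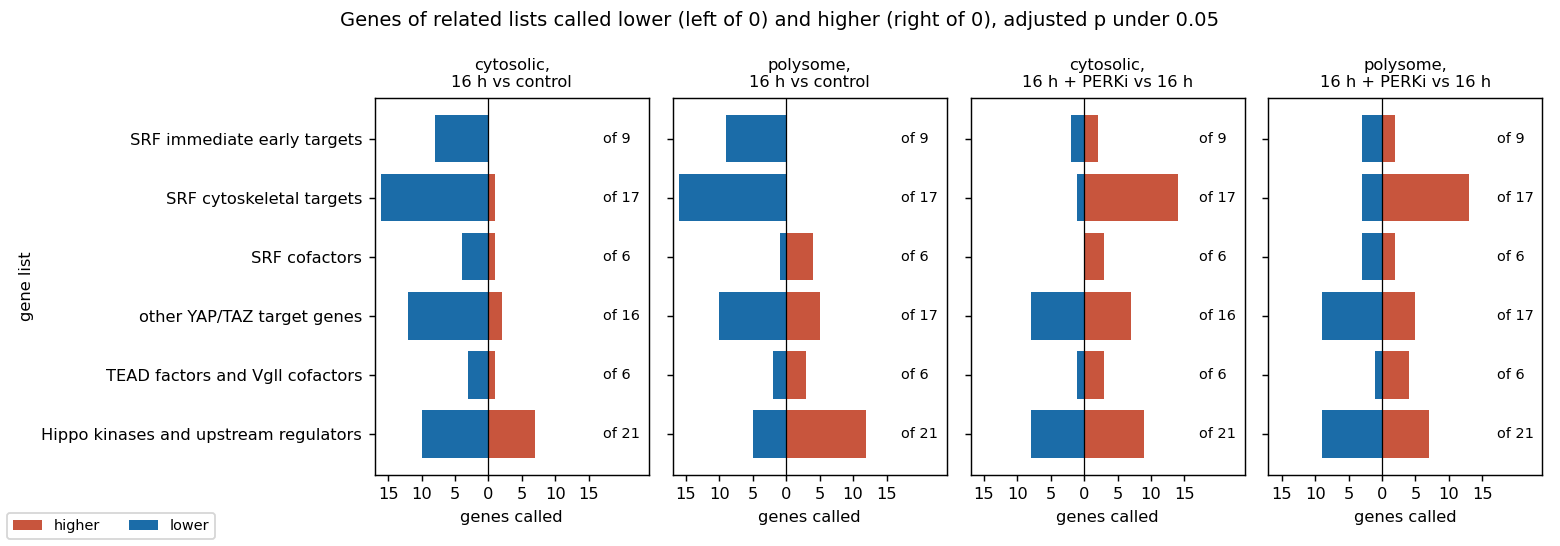
Number of genes called higher (right of 0) and lower (left of 0) in 6 related gene lists, with the number tested beside each bar, in cytosolic and polysome RNA at 16 h against control and with the inhibitor against 16 h. SRF cytoskeletal targets have 16 genes lower at 16 h in both RNA kinds and 14 and 13 higher with the inhibitor. Of all genes, 39.4% in cytosolic and 42.9% in polysome RNA were lower at 16 h, and 42.2% and 42.1% higher with the inhibitor.

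Over the 32 libraries, which share samples and conditions, the genes most like each of the 9 in log2 CPM were listed among 9933 genes with a mean of at least 5 CPM. Phlda1 was the closest to Cyr61 (r = 0.994), Anpep to Ctgf (r = 0.992) and Edn1 to Ankrd1 (r = 0.993). Itga11 was among the 3 closest genes of both Cyr61 and Ctgf, with r = 0.992 and r = 0.991. The closest gene was Itpr3 for Amotl2 (r = 0.986), Mki67 for Lats2 (r = 0.979) and Wdr92 for Amotl1 (r = 0.982). For Wwtr1 it was Orc2 (r = 0.99), for Yap1 Nploc4 (r = 0.991) and for Srf Krt80 (r = 0.98). These coefficients describe the libraries and carry no test.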

How the data were processed

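Cytosolic and polysome RNA of 16 samples of mouse embryonic fibroblasts was sequenced as 32 libraries, and the whole-number counts per gene are those the authors deposited, in 1 table with 20234 genes, of which 3234 were at 0 in every library. The submitters' processing notes name HISAT, DESeq2 1.9.23 and mm10. The counting tool, the annotation and the strand setting were not found in the labels or the file. Total counts were 19317276 to 41776027 per library.

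From the counts, genes were kept by edgeR's filterByExpr (minimum count 10, minimum total 15), scaled with TMM factors and tested with edgeR 4.0.16 (quasi-likelihood, robust, R 4.3.3). Cytosolic and polysome RNA were fitted separately with 16 libraries each and no replicate block. Translational efficiency was the interaction of RNA kind and condition over 32 libraries with the sample as a block. Adjusted p is Benjamini-Hochberg over all genes tested, called under 0.05. CPM values use TMM factors over all 32 libraries. The fits were also run on simulated counts with known changes, with the same dispersion in every gene and few genes changed. That setting differs from these data, where most genes were called in cytosolic and polysome RNA. The run therefore checks the code and not the calls.

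Whether equal replicate numbers pair samples across conditions was checked: of 24 same-numbered pairs in cytosolic RNA, 9 had deviations from the group means that correlated over 0.1, and in polysome RNA 4 of 24. Of pairs with other numbers, 25 of 72 and 14 of 72 did, so the numbers were not used as a pairing. Cytosolic and polysome libraries of 1 sample did so in 4 of 16 pairs, and those of different samples of a condition in 12 of 48. The sample block therefore rests on the stated division of each sample and not on this check. Alternatives were DESeq2 1.42.0, its size factors, upper-quartile factors, no filter, the replicate block, no sample block, coding length offsets (lowess, span 0.3, coding lengths for 19880 genes from GENCODE on GRCm38) and leaving out each sample. The named genes were all 9 members, up to 3 called genes with the smallest p from each other list in each comparison and measure, and for likeness the 3 genes with the highest Pearson r. Acta2 at 1 h in cytosolic RNA was outside that rule and was named after its values were seen. The genes and lists were chosen with earlier results of these data known, so no list is independent support. Promoters are from RefSeq on GRCm38.p6.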

Additional observations from a re-analysis of the deposited data

Results flagged for a closer look

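In 3 of 72 groups of 4 libraries, 1 library stood far from the other 3 by Dixon's test at the 95% level, and chance flags about 1 in 20 groups. They were Ankrd1 in cytosolic RNA at 1 h (576 CPM in replicate 1, the other 3 at 603 to 607 CPM), Lats2 in cytosolic RNA at 1 h (136.95 CPM in replicate 1, the other 3 at 127.9 to 128.2 CPM) and Lats2 in polysome RNA with the inhibitor (68.4 CPM in replicate 4, the other 3 at 64.9 to 65.3 CPM).

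In 7 genes the calls against the control went one way at 1 h and the other way at 16 h in the same RNA kind, or in both. The difference itself was tested as 16 h against 1 h with edgeR's quasi-likelihood test. For Cyr61 it was a log2 change of -5.58 in cytosolic and -5.80 in polysome RNA, for Ctgf -7.25 and -7.29, for Ankrd1 -3.85 and -3.76, and for Srf -2.48 and -2.57, with all 4 libraries at 16 h below all 4 at 1 h. Amotl2 differed in this way in cytosolic RNA alone, by -1.52, and Lats2 in polysome RNA alone, by -0.90. Wwtr1 in polysome RNA was lower at 1 h and higher at 16 h, a difference of 0.83. How many of all genes had opposite calls was not counted. In cytosolic RNA 56.2% of all genes were called at 1 h and 77.3% at 16 h, and in polysome RNA 79.5% and 85.1%. These shares hold both directions together and do not give the share of all genes with opposite calls. Whether opposite calls set any of the named genes apart from all genes was therefore not tested.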

How the results depend on the processing

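The counts of calls over all genes, both directions together, stayed within 1.5 times the reported ones in all 80 alternatives and all 120 fits that left out 1 sample. In 1 direction, the higher calls in translational efficiency with the inhibitor against the control were 3094 with upper-quartile factors, against 2050. With the replicate block, 7 of the 9 genes were called in cytosolic RNA at 1 h and 9 at 16 h, and 9 and 8 in polysome RNA, as without it. The block and the fit with no sample block changed no call of the 9 genes. Calls of the 9 genes in translational efficiency between 16 h and 1 h were 2 with upper-quartile factors and 1 to 2 when samples were left out, against 1. In the inhibitor samples against the control they were 8 with DESeq2, its size factors, upper-quartile factors or coding length offsets, against 5. Upper-quartile factors moved the median of all genes in that comparison by 0.12 (log2) in translational efficiency and 0.10 in polysome RNA. Relative to the reported sign, Yap1 in cytosolic RNA (0.0077) and Ankrd1 in polysome RNA (0.026) with the inhibitor against 16 h reversed with upper-quartile factors. In translational efficiency the reversed values were as follows. Ankrd1 had 0.13 at 1 h and 0.26 at 16 h with length offsets. Srf at 1 h had 0.00025 with DESeq2 size factors, 0.039 with upper-quartile factors and 0.10 with length offsets. Amotl1 at 16 h had 0.011 with upper-quartile factors. With the inhibitor against 16 h, Amotl1 had 0.029 with DESeq2 and with its size factors, 0.030 with upper-quartile factors, 0.011 with no filter and 0.56 with length offsets, and Lats2 had 0.15 with length offsets. Against the control, Amotl1 had 0.0018 with DESeq2, 0.0020 with its size factors and 0.042 with upper-quartile factors. When samples were left out, uncalled values crossed 0: Yap1 with the inhibitor against 16 h in cytosolic RNA ran from -0.044 to 0.019, and in translational efficiency Srf at 1 h ran from -0.18 to 0.076 and Amotl1 with the inhibitor against 16 h from -0.035 to 0.047. Between 16 h and 1 h Wwtr1 ran from -0.054 to 0.024, Ctgf from -0.082 to 0.031, Lats2 from -0.045 to 0.020 and Srf from -0.21 to 0.036. The cause of these changes was not tested. Depth limits Ctgf at 16 h most, with 161 to 189 counts in cytosolic libraries.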
